A study of Mus musculus with 12 samples.

Results

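The lipogenesis genes are 10 liver genes, Fasn, Acaca, Acacb, Acly, Scd1, Elovl6, Me1, Srebf1, Thrsp and Pnpla3, which were looked up by symbol among the 11289 genes of the deposited expression table, and all 10 were found. Liver RNA of 12 C57BL/6J mice, 8 to 10 weeks old by the labels, had been sequenced, 4 from each of 3 groups named control, Con A and Con A + MSCs. Con A (concanavalin A), a lectin from jack beans known to injure the liver by way of activated T cells, was injected once into the tail vein at 15 mg/kg in both Con A groups. The Con A mice then received PBS and the Con A + MSCs mice human umbilical cord mesenchymal stem cells (MSCs) in 200 µL of PBS, by vein 30 min after Con A, and livers were taken 24 h after Con A. For the control mice the labels state no injection, so that the control and Con A groups differ by all that was injected. The study's methods give a lower age for its mice than the labels do. The MSCs were human cells in mice with their own immune system, and no genotype other than the strain was given.

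De novo lipogenesis is the making of fatty acids from acetyl-CoA in the cytosol. ATP citrate lyase (Acly) releases acetyl-CoA from citrate, the acetyl-CoA carboxylases (Acaca and Acacb) turn it into malonyl-CoA, fatty acid synthase (Fasn) joins these units with NADPH that malic enzyme (Me1) helps to supply, and the products are lengthened by Elovl6 and desaturated by Scd1. In liver the program is known to rise with feeding and insulin through SREBP-1c, which is encoded by Srebf1, together with the carbohydrate sensor ChREBP, encoded by Mlxipl. Thrsp (Spot 14) and Pnpla3 (adiponutrin) are known to follow the same program.

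The table holds whole numbers in which differences between the libraries of the mice were already scaled out. Totals per mouse ran from 17649654 to 17657159, a range of 0.0425% of the median, so they do not show sequencing depth, which is unknown. The largest value, 341028, was taken by 10 genes in every mouse, and equal values recurred in different mice. On the first principal component, with 64.8% of the variance, the groups did not overlap, and 1 Con A mouse, Con A 4, stood apart from the rest on the second. A limma fit of log2(value + 1) in all 12 mice gave the fold changes, and a gene counted as called when its p, adjusted by Benjamini-Hochberg over the 11289 genes, was below 0.05 and its fold change exceeded 1.5.

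The upstream sequences of the 4 members below are shown because they carry the largest falls with a resolved control level (Pnpla3, Thrsp and Fasn) and the regulator itself (Srebf1). Each is the 120 bases before a RefSeq transcription start on GRCm38.p6, 5′ to 3′ on the strand of the gene, and capitals mark CCAAT, the box bound by the factor NF-Y, on either strand (ATTGG when read on the other strand). The Fasn stretch is chr11:120824548-120824667 on the minus strand, Srebf1 is chr11:60210472-60210591 on the minus strand, Thrsp is chr7:97417551-97417670 on the minus strand and Pnpla3 is chr15:84167696-84167815 on the plus strand.
Fasn: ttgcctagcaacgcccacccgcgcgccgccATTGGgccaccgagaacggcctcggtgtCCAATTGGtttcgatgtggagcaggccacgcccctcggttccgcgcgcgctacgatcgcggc
Srebf1: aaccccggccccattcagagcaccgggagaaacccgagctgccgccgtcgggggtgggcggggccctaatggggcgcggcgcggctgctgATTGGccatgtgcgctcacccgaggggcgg
Thrsp: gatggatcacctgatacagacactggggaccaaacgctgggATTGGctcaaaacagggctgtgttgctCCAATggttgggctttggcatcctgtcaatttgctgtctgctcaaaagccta
Pnpla3: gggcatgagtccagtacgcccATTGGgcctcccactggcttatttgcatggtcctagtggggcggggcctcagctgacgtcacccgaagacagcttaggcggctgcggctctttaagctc

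In Fasn the CCAAT boxes began 90, 62 and 59 bases before the start, and the last 2 overlapped on opposite strands. Thrsp held 2 boxes, 79 and 52 bases before its start, Pnpla3 held 1 at 99 and this Srebf1 start held 1 at 30. The Srebf1 stretch shown is that of the start nearest the transcript in the table, and the 120 bases before each of the other 2 RefSeq starts of Srebf1 hold no CCAAT. Over the longer windows that RefSeq gives, from 250 bases before to 50 after each start, those of 9 of the 10 members were searched (Scd1 was not analysed here) and 7 of the 9 held CCAAT in at least 1 window, the others being Acaca and Elovl6. Of all 27025 genes with such windows, 41.1% held it. The sterol response element TCACNCCAC and the E-box CACGTG, both searched on both strands, were in none of the 9 members and in 1.44% and 8.09% of all genes. At such low shares, finding none among 9 genes says little. These are matches of letters in short windows and not measured binding. Of the genes whose stretches are shown, the starts in RefSeq and in the table differ for Fasn (120824547 and 120824178), Srebf1 (60210471 and 60207188) and Thrsp (97417550 and 97417730), and the Thrsp stretch lies inside the transcript that the table gives. The RefSeq start of Acaca lies 65766 bases and that of Acacb 18983 bases inside the table's transcript, and the nearer of the RefSeq starts of Me1 39 bases inside, so the windows searched for Acaca and Acacb are not at the start of the transcript measured. The only CCAAT of Me1 is in the window of its other RefSeq start, which lies 8676 bases inside. For Acly, Elovl6 and Pnpla3 the starts are the same. Srebf1 had 3 RefSeq starts, while the table gives 1 transcript for each gene, so the SREBP-1a and SREBP-1c forms could not be told apart.

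All 10 lipogenesis genes fell after Con A. Over all genes tested, 19.2% were called down and 19.5% up in Con A versus control. The log2 fold changes of the 10 members ran from -5.13 to -1.22 with a median of -2.44, beside a median of 0.05 over all genes. For 7 of the 10, every Con A mouse lay below every control mouse, a separation that 23.4% of all genes showed in this direction. The exceptions were Acacb, Me1 and Scd1. Each gene of the table reaches 64 in at least 2 mice, and Pnpla3 does so through control mice alone, so that its difference was in part fixed by that filter. The other 9 members reach 64 in every mouse. In bulk liver RNA, fewer hepatocytes and less of an RNA in each hepatocyte cannot be told apart.

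**Figure D1:**
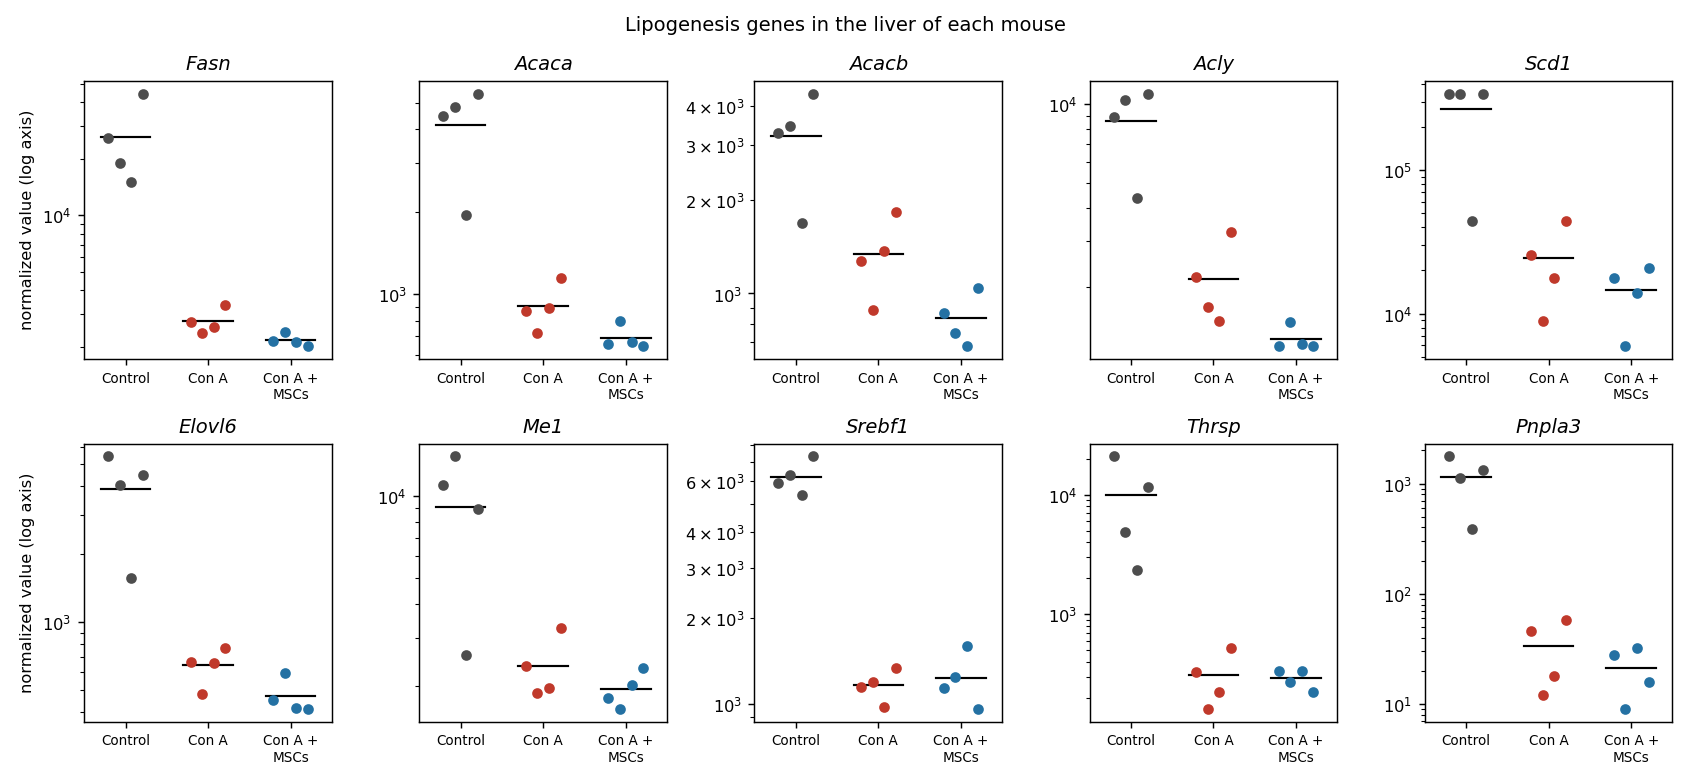
Normalized value (log axis) of each lipogenesis gene in each mouse, with points in the order of the replicate numbers 1 to 4 and a line at the mean of each group of 4 mice. Con A and Con A + MSCs means lie below the control mean in every panel, although control mouse 3 and Con A mouse 4 overlap for Acacb and Me1 and tie for Scd1. The third control mouse is the lowest of its group throughout, and 3 control mice share the largest value of the table, 341028, for Scd1.

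Acetyl-CoA for the pathway comes from Acly, which lies on chromosome 11 from 100476353 to 100528000 on mm10. Acly had values of 8898, 10346, 4374 and 10944 in control mice 1 to 4, of 2181, 1668, 1485 and 3227 in Con A mice, and of 1184, 1468, 1208 and 1190 in Con A + MSCs mice. The groups did not overlap, and Acly was the only member for which the Con A + MSCs mice also lay wholly below the Con A mice. It fell 3.99-fold after Con A (log2 fold change -1.99, SE 0.29, limma with Benjamini-Hochberg adjusted p = 1.1e-04). Me1, the malic enzyme of the cytosol (chromosome 9, 86581371 to 86695953), had values of 10956, 13948, 2612 and 8908 in control mice, 2377, 1890, 1976 and 3268 in Con A mice and 1808, 1648, 2024 and 2341 in Con A + MSCs mice. The value of control mouse 3 lay below that of Con A mouse 4, so the groups overlapped through these mice. The fall of Me1 was 3.33-fold (log2 fold change -1.73, SE 0.41, limma adjusted p = 0.00315).

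The carboxylases make malonyl-CoA, Acaca for synthesis in the cytosol and Acacb at the mitochondrial surface, where its product is known to restrain fatty acid oxidation. Acaca (chromosome 11, 84129672 to 84214290) had values of 4462, 4834, 1938 and 5393 in control mice, 864, 721, 888 and 1140 in Con A mice and 659, 797, 666 and 644 in Con A + MSCs mice. All Con A mice were below all control mice, and the fall was 4.34-fold (log2 fold change -2.12, SE 0.27, limma adjusted p = 4.1e-05). For Acacb (chromosome 5, 114146535 to 114250761) the values were 3273, 3452, 1686 and 4386 in control mice, 1267, 888, 1371 and 1830 in Con A mice and 865, 744, 676 and 1044 in Con A + MSCs mice. Control mouse 3 again lay below Con A mouse 4. Acacb showed the smallest fall of the 10, 2.33-fold (log2 fold change -1.22, SE 0.28, limma adjusted p = 0.0027), and the 95% intervals of the carboxylases, -2.70 to -1.54 for Acaca and -1.83 to -0.62 for Acacb, overlapped.

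Fasn, the synthase that builds palmitate (chromosome 11, 120805940 to 120824178), had values of 25781, 18894, 15057 and 44442 in control mice, 2722, 2354, 2546 and 3354 in Con A mice and 2138, 2392, 2119 and 2009 in Con A + MSCs mice. The highest Con A mouse was far below the lowest control mouse. Fasn fell 8.78-fold (log2 fold change -3.13, SE 0.26, limma adjusted p = 2.0e-06), and within the Con A group the highest value was 1.42 times the lowest, against 2.95 times in the control group.

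Elovl6, which lengthens palmitate to stearate, and Scd1, which makes oleate from stearate, act on the product of Fasn. Elovl6 (chromosome 3, 129532386 to 129638495) had values of 5429, 4060, 1564 and 4483 in control mice, 668, 483, 662 and 771 in Con A mice and 452, 594, 416 and 412 in Con A + MSCs mice. Without overlap, it fell 5.53-fold after Con A (log2 fold change -2.47, SE 0.31, limma adjusted p = 4.4e-05). Scd1 (chromosome 19, 44394451 to 44407709) stood at the largest value of the table, 341028, in control mice 1, 2 and 4 and at 44548 in control mouse 3, against 25805, 8898, 17650 and 44548 in Con A mice and 17650, 5910, 13937 and 20871 in Con A + MSCs mice. Control mouse 3 and Con A mouse 4 had the same value. Since 3 of the control values are at a limit shared by 10 genes, the measured fall of 9.95-fold (log2 fold change -3.31, SE 0.68, limma adjusted p = 0.00133) is limited by it, and without control mouse 3 the log2 fold change was -4.05.

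Srebf1 encodes the SREBP-1 transcription factors, whose target genes include the enzymes above. Its values (chromosome 11, 60199089 to 60207188) were 5899, 6305, 5376 and 7330 in control mice, 1151, 1192, 978 and 1338 in Con A mice and 1137, 1244, 1596 and 962 in Con A + MSCs mice. Srebf1 was the member with the least spread among control mice, where its highest value was 1.36 times the lowest. The fall was 5.34-fold (log2 fold change -2.42, SE 0.16, limma adjusted p = 3.7e-07).

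Among the 9 members other than Scd1, whose control level is at the limit of the table, the largest measured falls were those of Pnpla3 and Thrsp. Thrsp, a small regulator of lipogenic enzymes that thyroid hormone induces (chromosome 7, 97412938 to 97417730), had values of 20871, 4830, 2340 and 11588 in control mice, 332, 162, 224 and 527 in Con A mice and 338, 274, 338 and 226 in Con A + MSCs mice. It fell 25.5-fold (log2 fold change -4.67, SE 0.56, limma adjusted p = 2.7e-05), although the control values themselves spanned 8.92-fold. Pnpla3, a lipid droplet protein known for its link to fatty liver (chromosome 15, 84167816 to 84189512), had values of 1766, 1132, 386 and 1330 in control mice, 46, 12, 18 and 58 in Con A mice and 28, 9, 32 and 16 in Con A + MSCs mice. Every mouse given Con A was below 64. The fall was 35-fold (log2 fold change -5.13, SE 0.57, limma adjusted p = 1.6e-05), a value that the added 1 makes somewhat smaller at such levels.

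The same mice gave the extremes in gene after gene. Control mouse 3 was the lowest control in all 10 members, with a median log2 deviation of -1.09 from the group mean, and Con A mouse 4 was the highest Con A mouse in all 10, with 0.50. In the Con A + MSCs group no mouse was lowest in more than 5 members or highest in more than 4. Over the 45 pairs of members, the median Pearson r of the deviations from group means in the 12 mice was 0.711, from 0.129 for Acacb with Srebf1 to 0.938 for Acaca with Elovl6. Without these 2 mice the median r was 0.115, with a range from -0.723 to 0.755. They were picked as the extremes in all 10 members, so leaving them out was bound to lower r, and nothing is concluded from the drop. These r describe members measured in the same libraries. Leaving both mice out, a fit chosen after seeing the data, still called all 10 members down, with log2 fold changes from -5.94 for Pnpla3 to -1.67 for Acacb.

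**Figure D2:**
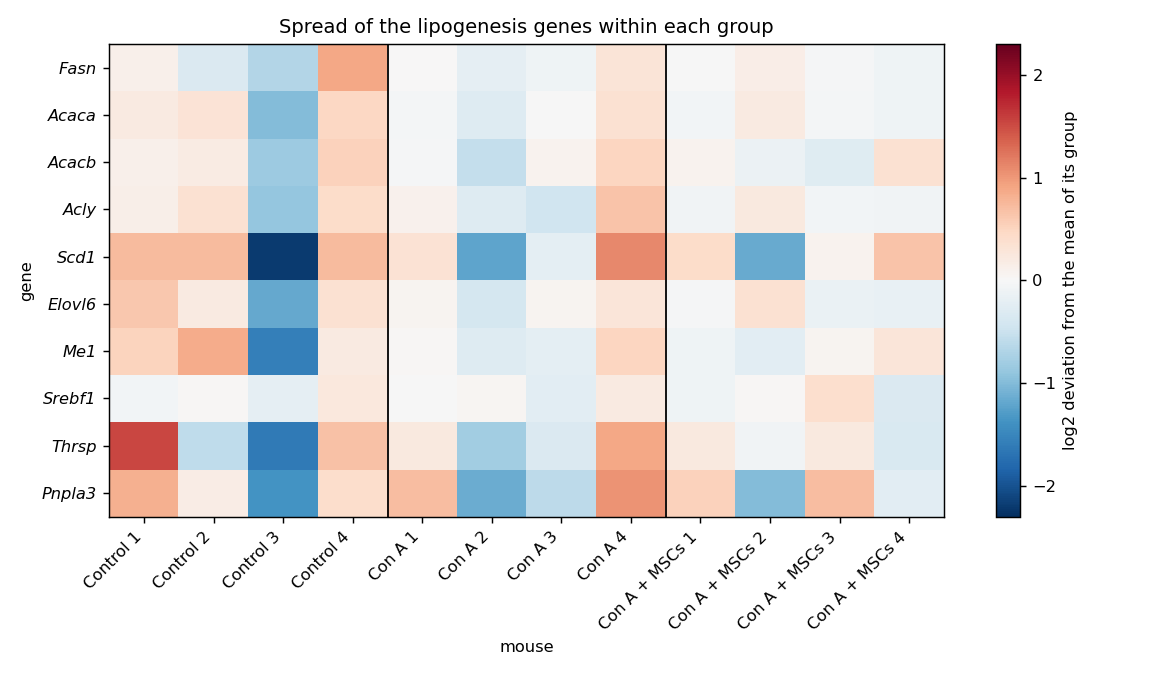
Log2 deviation of each lipogenesis gene (rows) in each mouse (columns) from the mean of its own group, with red above and blue below that mean. Control mouse 3 is below its group mean in all 10 genes and Con A mouse 4 above it in all 10, while the Con A + MSCs mice show no such column.

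None of the 10 lipogenesis genes was called in Con A + MSCs versus Con A, where 4.38% of all genes were called down and 4.2% up. By limma with an unadjusted p below 0.05 and a fold above 1.5 the count was 2, Acly and Acacb, both lower with MSCs, where 6.97% of all genes were lower and 8.06% higher by that threshold. The log2 fold change of Acly was -0.70 (95% interval -1.32 to -0.08, limma adjusted p = 0.107) and that of Acacb -0.66 (-1.26 to -0.05, limma adjusted p = 0.116). For 8 members the point value lay below 0, and the median of the 10 was -0.41 beside 0.00 over all genes. All Con A + MSCs mice lay below all Con A mice for 1 of the 10, Acly, and for 11.6% of all genes. The counts over all genes in this comparison rested on single mice, with 474 up and 495 down in all 12 mice but 5 and 2 without Con A mouse 1, 8 and 10 without Con A + MSCs mouse 2 and 4 and 3 without Con A + MSCs mouse 3.

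The intervals limit how far any member stood above its Con A level in mice given MSCs. For Fasn the log2 fold change was -0.33 (95% interval -0.90 to 0.23, limma adjusted p = 0.385) and for Acaca -0.37 (-0.95 to 0.21, limma adjusted p = 0.339). Srebf1 had the narrowest interval, -0.27 to 0.41 around a value of 0.07 (limma adjusted p = 0.787). For Elovl6 the value was -0.46 (-1.14 to 0.22). Changes of 1.5-fold in either direction lie inside the intervals of Me1 (-0.26, -1.14 to 0.62), Scd1 (-0.64, -2.11 to 0.83), Thrsp (0.04, -1.17 to 1.24) and Pnpla3 (-0.52, -1.75 to 0.72). These intervals are for 1 gene at a time and are not adjusted. The fit pools the spread of all 3 groups, so they also carry that of the control mice. For Me1 the SD of log2 values was 1.08 in control, 0.36 in Con A and 0.22 in Con A + MSCs mice, and for Srebf1 0.19, 0.19 and 0.30. Without control mouse 3 the limma adjusted p fell from 0.107 to 0.0556 for Acly and from 0.116 to 0.0632 for Acacb. In that fit 0 of the 10 members were called.

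**Figure D3:**
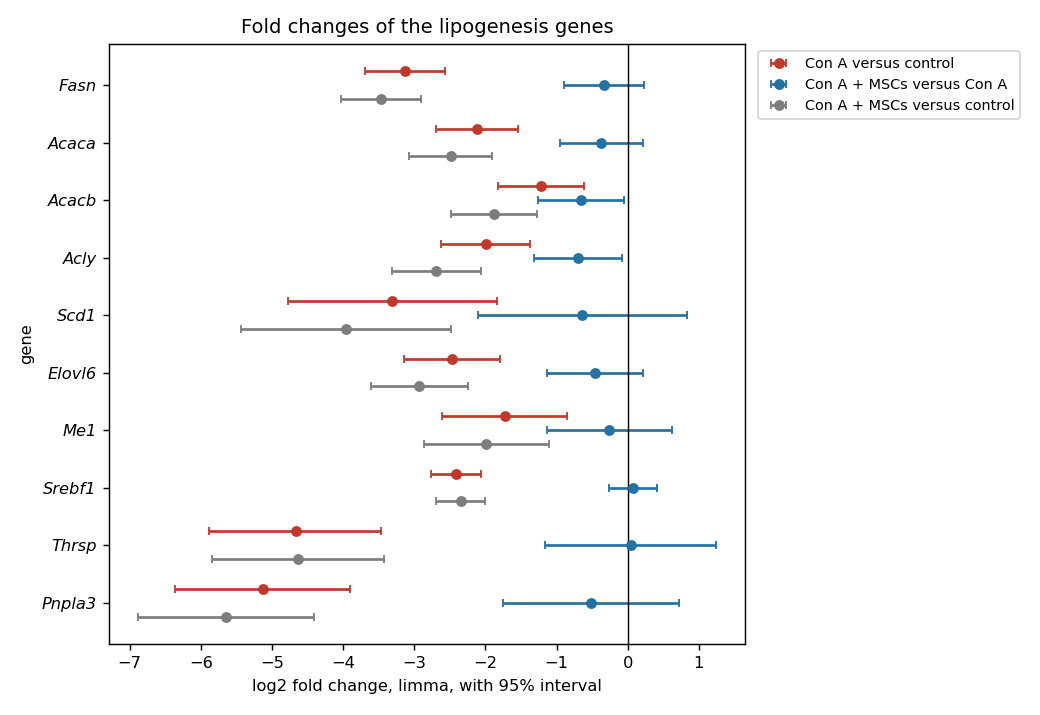
Log2 fold change (points) with its 95% interval (bars) of each lipogenesis gene from the limma fit, in Con A versus control (red), Con A + MSCs versus Con A (blue) and Con A + MSCs versus control (grey). All intervals of the comparisons with control lie below 0, while those of Con A + MSCs versus Con A hold 0 for 8 genes, with Scd1 reaching down to -2.11, and lie below 0 for Acly and Acacb.

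All 10 members were also called down in Con A + MSCs versus control, a call that 13.1% of all genes had in this direction and 13.6% in the other. The log2 fold changes ran from -5.65 for Pnpla3 to -1.88 for Acacb with a median of -2.81. In each of the 10 the Con A + MSCs mice lay wholly below the control mice, which was so for 17.3% of all genes. The comparison of each Con A group with control uses the same 4 control mice, and Con A versus control and Con A + MSCs versus Con A share the Con A mice, so the 3 comparisons are not independent.

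The genes around the pathway were less uniform. Of 14 genes that supply acetyl-CoA and NADPH, 5 were called down and 0 up after Con A, beside 19.2% and 19.5% of all genes. Their median log2 fold change was -0.53, beside 0.05 over all genes. Acss2, which makes acetyl-CoA from acetate, had values of 9819, 7104, 5228 and 8498 in control mice, 698, 687, 622 and 829 in Con A mice and 779, 1276, 831 and 804 in Con A + MSCs mice, and fell 10.6-fold after Con A (log2 fold change -3.40, limma adjusted p = 1.8e-07). Mpc2, a subunit of the mitochondrial pyruvate carrier, was at 5255, 3594, 4289 and 3750 in control, 1454, 1874, 1830 and 1170 in Con A and 3200, 3322, 2792 and 2290 in Con A + MSCs mice. Mpc2 fell after Con A (log2 fold change -1.42, limma adjusted p = 4.1e-05) and was the 1 gene of the list called with MSCs, where it rose 1.85-fold over Con A (log2 fold change 0.89, limma adjusted p = 0.0218). That call was lost in 3 of the 12 fits that left out 1 mouse, namely Con A mouse 1 or Con A + MSCs mouse 2 or 3, where the log2 fold change stayed between 0.82 and 0.90 and the limma adjusted p was between 0.0574 and 0.0744.

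Of 15 genes of fatty acid elongation, desaturation and activation, 8 were called down and 3 up after Con A, with a median of -0.80. The shares of all genes were 19.2% down and 19.5% up. Elovl5, which lengthens polyunsaturated fatty acids, fell 2.74-fold (limma adjusted p = 8.8e-04), from values between 9812 and 20780 in control to between 3728 and 7311 in Con A mice. Elovl3, an elongase of saturated fatty acids, fell 5.27-fold at low values (limma adjusted p = 0.0164), between 32 and 87 in control and between 3 and 35 in Con A mice, which overlap. Hacd3, a dehydratase of the elongation cycle listed under its older symbol Ptplad1, rose 2.38-fold (limma adjusted p = 6.3e-05), from between 2118 and 3212 to between 5783 and 6976. Acsl4, which activates arachidonate, was at 1132, 1444, 1331 and 1638 in control, 4386, 3130, 4291 and 5925 in Con A and 2168, 1630, 1672 and 2245 in Con A + MSCs mice. Acsl4 rose 3.14-fold after Con A (limma adjusted p = 2.0e-05) and fell 2.26-fold with MSCs (limma adjusted p = 0.0168), the only call of this list in that comparison, which was lost without the same 3 mice, 1 at a time, at log2 fold changes between -1.17 and -1.10, against -1.18 with all mice.

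Triglyceride assembly joins fatty acids to glycerol. Of its 11 genes 2 were called up and 1 down after Con A, beside 19.5% and 19.2% of all genes, and the median was 0.01. The number called down after Con A ran from 1 to 4 with 1 mouse left out. It was 2 without control mouse 1 or 4 or Con A mouse 2, 3 or 4 and 4 without control mouse 3. With MSCs 0 were called, beside 4.2% of all genes up and 4.38% down. With 1 mouse left out, the number called down with MSCs ran from 0 to 1. Gpat3, an acyltransferase of the first step that the table lists as Agpat9, rose 2.94-fold (limma adjusted p = 1.0e-04), from between 100 and 168 in control to between 276 and 496 in Con A mice. Mttp, which loads triglyceride onto lipoproteins, rose 1.75-fold (limma adjusted p = 0.00237), from between 3432 and 5530 to between 6498 and 10305. Dgat2, the acyltransferase of the last step, fell 1.62-fold (limma adjusted p = 0.00298), from between 6521 and 7334 to between 2898 and 5030, and without Con A mouse 4 the log2 fold change was -0.50 and under the fold limit. With MSCs, by limma and an unadjusted p below 0.05 with a fold above 1.5, 11 genes of all 5 pathway lists would be called, against 5 with the adjusted p.

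**Figure D4:**
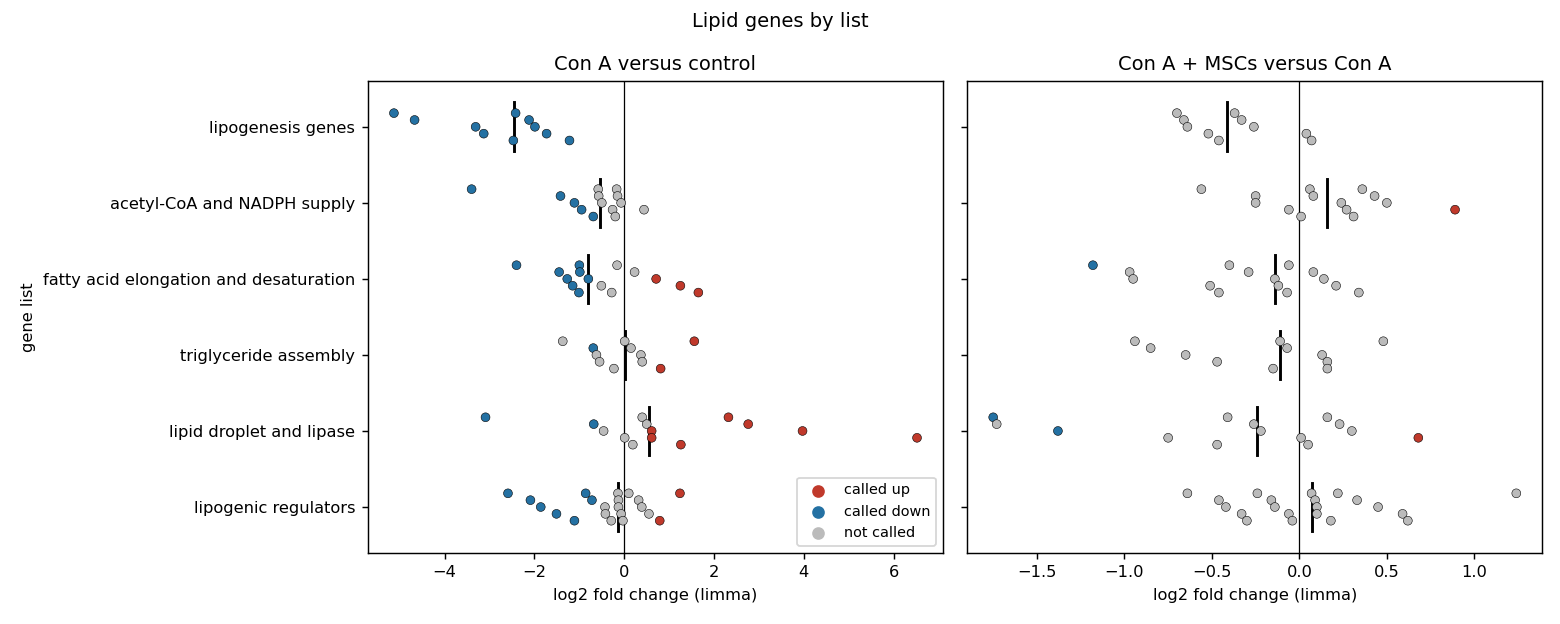
Log2 fold change of each gene (points) in the lipogenesis genes and 5 related lists, in Con A versus control (left) and Con A + MSCs versus Con A (right), with red for called up, blue for called down, grey for not called and a black line at the median of each list. The axes differ in range. After Con A the lipogenesis genes lie wholly below 0, and the lipid droplet list reaches from -3.09 to 6.52.

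Of 14 lipid droplet and lipase genes, more were called up (7) than down (2) after Con A, with a median of 0.56, and without Con A mouse 4 the number called down was 1. Cidec, which promotes droplet growth, was at 5, 4, 12 and 10 in control mice, 660, 290, 845 and 1888 in Con A mice and 406, 76, 155 and 520 in Con A + MSCs mice. It rose 92-fold after Con A (log2 fold change 6.52, limma adjusted p = 5.9e-06), and its value with MSCs relative to Con A was -1.73 on the log2 scale (limma adjusted p = 0.0795). Hilpda, an inhibitor of droplet lipolysis that hypoxia induces, had values of 28, 24, 36 and 16 in control, 348, 202, 324 and 1192 in Con A and 167, 84, 116 and 126 in Con A + MSCs mice. Its rise after Con A was 15.7-fold (limma adjusted p = 1.7e-05) and its fall with MSCs was 3.37-fold (limma adjusted p = 0.0316). Plin2, the main coat protein of hepatic droplets, was at 4129, 5608, 6976 and 5276 in control, 34530, 25900, 34530 and 58393 in Con A and 17720, 8577, 12268 and 21000 in Con A + MSCs mice. Plin2 rose 6.78-fold after Con A (limma adjusted p = 1.3e-05) and fell 2.6-fold with MSCs (limma adjusted p = 0.0241), and for both Hilpda and Plin2 the call with MSCs was lost without Con A mouse 1 or Con A + MSCs mouse 2 or 3. In those fits the log2 fold change of Hilpda was between -1.83 and -1.59, against -1.75 with all mice, and that of Plin2 between -1.41 and -1.14, against -1.38. Hilpda also lost its call when only the 8 mice compared were fitted (limma adjusted p = 0.0543).

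Among the droplet genes called down after Con A, Fitm1, which partitions triglyceride into droplets, fell 8.52-fold (limma adjusted p = 7.4e-05), from between 112 and 148 in control to between 9 and 21 in Con A mice. Cideb, which acts in lipoprotein loading, fell 1.6-fold after Con A (limma adjusted p = 0.00139) and rose 1.61-fold with MSCs (limma adjusted p = 0.0223). Its values were 3406, 2503, 2908 and 2792 in control, 1858, 2042, 1964 and 1400 in Con A and 3091, 3050, 2978 and 2474 in Con A + MSCs mice. Without Con A mouse 1 or Con A + MSCs mouse 2 or 3 the log2 fold change of Cideb with MSCs was between 0.66 and 0.70, against 0.68 with all mice, and its limma adjusted p was between 0.0621 and 0.0703. Without Con A mouse 4 it was 0.56 with MSCs (limma adjusted p = 0.0381) and -0.56 after Con A (limma adjusted p = 0.00229), against -0.68 with all mice, and both passed the test but lay under the fold limit of 1.5. Control mice for Cidec and Hilpda, and Con A mice for Elovl3 and Fitm1, lay below 64 throughout, so the filter of the table in part fixed these differences.

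**Figure D5:**
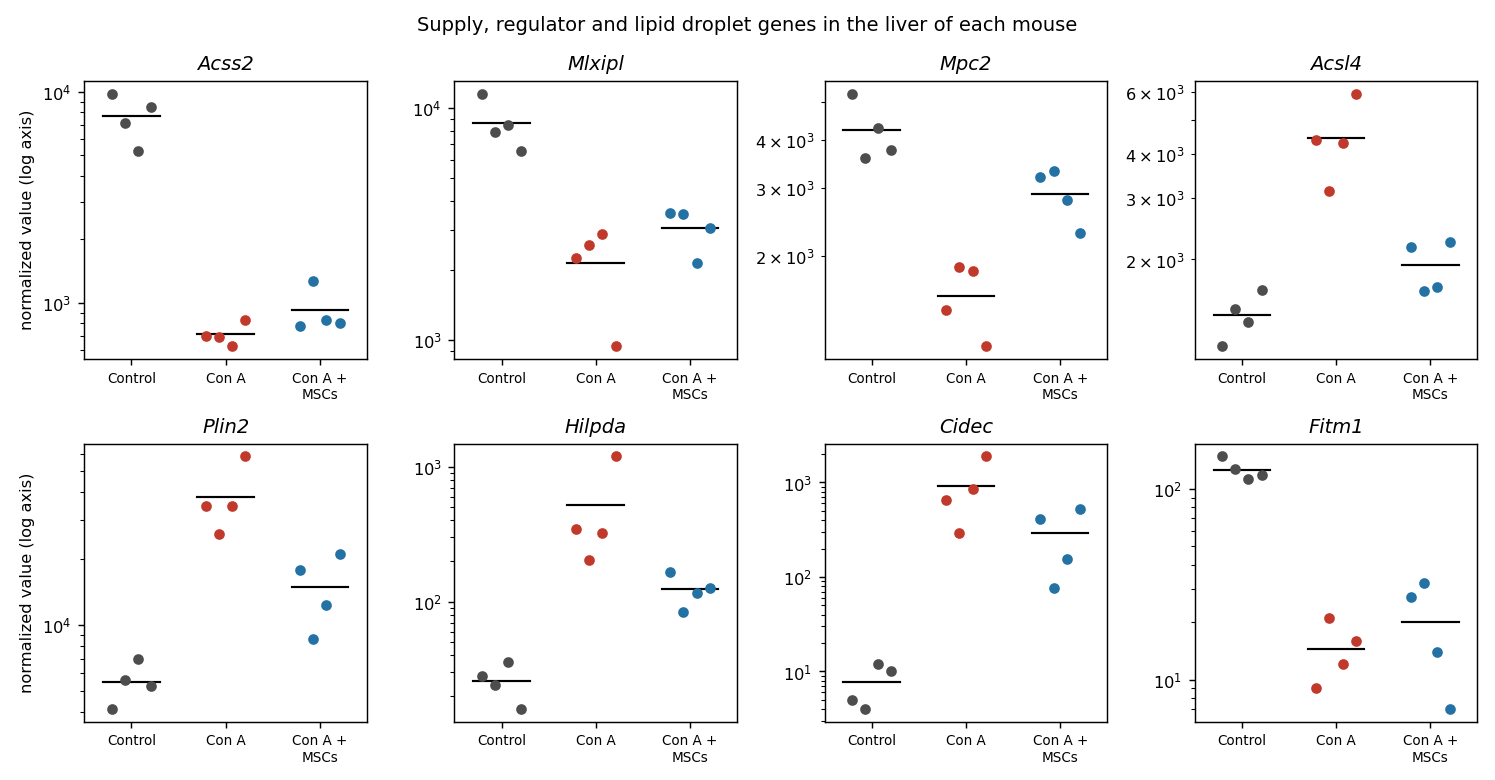
Normalized value (log axis) of genes of acetyl-CoA supply (Acss2, Mpc2), regulation (Mlxipl), fatty acid activation (Acsl4) and lipid droplets (Plin2, Hilpda, Cidec, Fitm1) in each mouse, with a line at the mean of each group of 4 mice. Mpc2, Acsl4, Plin2 and Hilpda in Con A + MSCs mice lie between control and Con A means, whereas Acss2 and Fitm1 overlap the Con A mice.

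Of 21 regulators of lipogenesis other than Srebf1, 7 were called down and 2 up after Con A, with a median of -0.14. The shares of all genes were 19.2% down and 19.5% up. With MSCs 0 of the 21 were called, which is near the shares of all genes, 4.38% down and 4.2% up. Mlxipl, which encodes ChREBP, had values of 11574, 7936, 8520 and 6521 in control, 2260, 2574, 2859 and 940 in Con A and 3534, 3486, 2160 and 3040 in Con A + MSCs mice. It fell 4.25-fold after Con A (log2 fold change -2.09, limma adjusted p = 1.4e-04), and its log2 fold change with MSCs was 0.59 (limma adjusted p = 0.195). Nr0b2, the repressor SHP, fell 6.03-fold (log2 fold change -2.59, limma adjusted p = 0.00593), with 935, 991, 969 and 1029 in control and 238, 369, 345 and 22 in Con A mice, and without Con A mouse 4 the log2 fold change was -1.65. Insig2, which holds SREBP precursors in the endoplasmic reticulum, rose 2.37-fold (limma adjusted p = 5.4e-05), from between 3348 and 4534 to between 7576 and 11534. Insig1, its paralogue with the same role, fell 2.85-fold (limma adjusted p = 0.00107), from between 7571 and 13131 to between 2016 and 6017. Prkab2, a subunit of the kinase AMPK that inhibits the carboxylases, rose 1.73-fold (limma adjusted p = 0.0055), from between 55 and 66 to between 86 and 154. Other AMPK subunits fell, Prkaa2 1.82-fold (limma adjusted p = 6.1e-04), from between 859 and 1381 to between 573 and 669, and Prkag2 2.17-fold (limma adjusted p = 2.5e-04), from between 532 and 636 to between 184 and 346. Prkaa1, Prkab1 and Prkag1 were not called, with log2 fold changes of 0.55, -0.14 and -0.03, of which that of Prkaa1 passed the test (limma adjusted p = 0.00253) but lay under the fold limit. Insig1 and these other subunits were named after their values were seen.

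Of 18 genes of cholesterol synthesis and uptake, many of them targets of the related factor SREBP-2, 2 were called up and 4 down after Con A, with a median of -0.03. Of 19 genes of fatty acid oxidation, 2 were called up and 3 down, with a median of 0.15. These are counts of small lists, beside 19.2% of all genes called down and 19.5% up. With 1 mouse left out, the cholesterol genes called up after Con A ran from 0 to 3 (0 without control mouse 2, 1 without control mouse 1 or Con A mouse 4) and those called down from 2 to 5 (2 without control mouse 3 or Con A mouse 2 or 3). The oxidation genes called up ran from 1 to 3, with 1 without control mouse 1 or Con A mouse 1 or 3. With MSCs versus Con A, 0 of the 18 were called, and 3 of the 19 were called up and 1 down, beside 4.2% and 4.38% of all genes. With 1 mouse left out, the cholesterol genes called down ran from 0 to 2, being 2 without Con A mouse 2 and 1 without Con A + MSCs mouse 4. Of the oxidation genes 0 were called up without Con A mouse 1 or 4 or Con A + MSCs mouse 1, 2 or 3. The number called down ran from 0 to 3, being 0 without Con A mouse 1, 3 or 4 or Con A + MSCs mouse 2 or 3, 2 without control mouse 1 or Con A mouse 2 and 3 without Con A + MSCs mouse 4. The differences between lists were not tested.

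Outside the pathway lists, the 5 genes whose log2 values over the 12 mice were most like the mean standardised level of the 10 members were Pdk1 (Pearson r = 0.988), Ahcy (0.984), Cyc1 (0.982), H2-Q1 (0.982) and Aldh2 (0.979). Pdk1, a kinase that inhibits pyruvate dehydrogenase, lay between 1302 and 2484 in control, between 620 and 838 in Con A and between 548 and 701 in Con A + MSCs mice. Aldh2, the mitochondrial aldehyde dehydrogenase, lay between 29712 and 72783, between 10370 and 13961 and between 10370 and 12230. Such r over 3 groups mostly reflect the distance between control and the rest. H2-Q1 belongs to a family of near-identical genes, and its value is uncertain for that reason.

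Markers of cell types moved in different directions after Con A, where 19.2% of all genes were called down and 19.5% up. Of 11 hepatocyte markers 5 were called down, 1 up and 5 neither after Con A, and their summed value was between 1345473 and 1546863 in control, between 1060189 and 1109700 in Con A and between 1071809 and 1120657 in Con A + MSCs mice. Alb, the defining hepatocyte gene, was at 341028 in all 12 mice, the shared largest value, so its change could not be measured. Cps1 was at 147960 in all 12 mice, Serpina1c was at 341028 in all control mice and Fgb at 341028 in all mice given Con A, so the summed value consists largely of such tied values and does not measure the share of hepatocytes. The 7 analysed neutrophil markers were called up, summing to between 70 and 153 in control, between 1158 and 2038 in Con A and between 867 and 1787 in Con A + MSCs mice. The 3 analysed of 11 listed T cell markers were also called up, from sums between 15 and 43 to between 226 and 358, and of 12 macrophage and monocyte markers 5 rose and 6 fell. All 7 neutrophil and 3 T cell markers, and Ly6c2 and Cd14 among the macrophage and monocyte markers, reach 64 in at least 2 mice only through the mice given Con A. The filter of the table therefore in part fixed their direction, and markers below 64 in every group could not appear. Likewise Adgre1 and Vsig4, 2 of the 6 macrophage markers that fell, and Tek among the endothelial markers reach it in at least 2 mice only through control mice, with at most 39, 65 and 78 in the mice given Con A. Of 8 endothelial markers 1 rose and 5 fell, of 8 stellate and fibroblast markers 0 rose and 3 fell, and of 4 cholangiocyte markers 1 rose and 0 fell. The lipogenic program is also strong in fat tissue, of which 2 markers were analysed here. Fabp4 rose after Con A and Pparg was not called, with a sum between 201 and 244 in control and between 631 and 779 in Con A mice, while Adipoq, Lep and Plin1 were not analysed here. The part of these cell types in the fall of the lipogenesis genes was not tested.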

How the data were processed

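The submitters' processing notes name Bowtie2 2.2.1, RSEM 1.2.18 and mm10, with 150-bp paired-end reads of poly-A RNA on NovaSeq, and the study's methods name DESeq2. Each value the authors deposited is a score per gene and mouse, rounded to a whole number and scaled between mice. How it was normalized is not given in the sources used here. Totals are nearly equal and high values are tied, so depth is unknown, count tests were not used, and no counting error is given. Genes under 64 in more than 10 mice had been left out. Groups come from the sample titles.

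Scores were fitted as log2(score + 1) by lmFit and trended eBayes of limma 3.58.1 (R 4.3.3), with the group as the only term and all 12 mice, after a check on simulated data. The p-values test differences between group means against the spread between mice, pooled over the 3 groups. Intervals are 95%. The 10 members and all lists were chosen with earlier results of these data known. Named genes were the members, in each pathway list the 2 called genes that rose most and the 2 that fell most in Con A versus control or in Con A + MSCs versus Con A, and the 5 most like the members, while other genes were named as markers or in clauses. Alternatives were a pseudocount of 10, a mean of at least 100, median centring, no trend, only the 8 mice compared, a replicate block, no fold limit, the unadjusted p and each mouse left out. Sequences are from RefSeq, positions from the table. Deviations of same-numbered mice correlated at r from -0.118 to 0.375, not all above 0.1, so numbers were not taken to pair mice. Python 3.11.15, pandas 2.3.3, numpy 2.4.6 and matplotlib 3.10.9 were used.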

Additional observations from a re-analysis of the deposited data

Results flagged for a closer look

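Of 30 sets of 4 mice (10 lipogenesis genes in 3 groups), 3 held a mouse far from the other 3, by a gap to the nearest mouse above Dixon's critical share of the range, and chance alone flags about 1 in 20. For Scd1, control mouse 3 had 44548 while the other control mice were at 341028, the largest value of the table. Since these 3 values are tied at that limit, any lower value would have been flagged, and 2 sets remain beside it. For Acaca, Con A + MSCs mouse 2 had 797 while the others lay between 644 and 666. For Acly, the same mouse had 1468 while the others lay between 1184 and 1208.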

How the results depend on the processing

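The count of 10 lipogenesis genes called down in Con A versus control, and in Con A + MSCs versus control, was 10 under every alternative run and with each mouse left out in turn. Between the Con A groups the count was 0 under all of them but the unadjusted p, which gave 2 where it called 787 of all 11289 genes down and 910 up. In that comparison the sign of 2 members turned without 1 mouse. Srebf1 changed from 0.07 to -0.01 without Con A mouse 3 and to -0.06 without Con A + MSCs mouse 3. Thrsp changed from 0.04 to -0.23 without Con A mouse 2, to -0.07 without Con A mouse 3 and to -0.03 without Con A + MSCs mouse 1 or 3. The highest values without 1 mouse were 0.18 for Srebf1 and 0.34 for Thrsp. The cause was not tested.

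The count of genes called in the 5 pathway lists with MSCs versus Con A was 5. It was 11 with the unadjusted p and 1 without control mouse 3 and Con A mouse 4, a fit chosen after seeing the data, in which Acsl4 was the gene called. Hilpda alone of the 5 lost its call when only the 8 mice compared were fitted. Without 1 mouse it ran from 0 to 9, and it was 0 without Con A mouse 1 and without Con A + MSCs mouse 2 or 3. In those fits the calls over all genes also fell, to between 4 and 8 up and between 2 and 10 down, from 474 and 495. With the replicate number as a block the count was 8, while the counts of lipogenesis genes remained 10, 0 and 10. The numbers name different animals. Mice numbered 4 correlated best with their own number in all 3 comparisons, and those numbered 2 in Con A + MSCs versus Con A (r = 0.375), while most others did not.

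Since depth is unknown, the counting error of low values such as those of Pnpla3 after Con A cannot be given, and the shared largest value limits Scd1.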
